A study of Mus musculus with 6 samples.

Results

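The Nduf genes encode most of the nuclear part of respiratory complex I (NADH:ubiquinone oxidoreductase) and its assembly factors, and their RNA was compared here between Mc5r-null and wild-type mouse LSK cells. Members were all genes of the deposited table whose symbol begins with Nduf, leaving out symbols that end in -ps, which gave 49 of 55487 genes. Of these, 36 are complex I subunits, 8 are assembly factors and 2 are named Nduf but now assigned to complex IV (Ndufa4 and Ndufa4l2). The other 3 (Ndufa11b, Ndufb4c and Ndufs6b) are called paralog copies here and are annotated as processed pseudogenes. The genotypes were Mc5r-/- in 3 libraries and wild-type littermates in 3 libraries. The LSK gate takes bone-marrow cells that lack lineage markers and carry Sca-1 and Kit, and it holds blood stem cells and early progenitors. Both genotypes were studied after irradiation, whose dose and time the labels do not give. Mc5r encodes a melanocortin receptor, and the labels do not say in which cells it was deleted, nor whether each library came from 1 mouse or a pool.

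Complex I is the first enzyme of the mitochondrial respiratory chain. It takes electrons from NADH in an arm that reaches into the mitochondrial matrix, passes them to ubiquinone, and pumps protons through an arm that lies in the inner membrane. A set of catalytic core subunits does this chemistry, accessory subunits surround the core, and assembly factors help to build the complex without remaining in it. Blood stem cells are known to lean on glycolysis while quiescent and to raise respiration when they divide and differentiate.

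The starts of 4 genes called lower in Mc5r-null cells are shown because all called members moved in 1 direction and because subunit promoters are known to carry sites for NRF1, for the ETS-family factor GABP and for YY1. RefSeq promoter windows (GRCm38.p6, 250 bases before to 50 after the start, the first listed for each gene) were matched by symbol for 40 of the 49 members. Ndufb8 had the smallest p of all members, and Ndufb7, Ndufs5 and Ndufa9 had the smallest p among called members whose window matched the ETS letters CCGGAAG, the NRF1 letters GCGCNTGCG or the YY1 letters AANATGGCG on either strand. Each line runs 5′ to 3′ on the gene's strand from 150 bases before the start to 50 after it, at chr19:44555393-44555592 (minus strand) for Ndufb8, chr8:83566608-83566807 (plus strand) for Ndufb7, chr4:123718137-123718336 (minus strand) for Ndufs5 and chr6:126849095-126849294 (minus strand) for Ndufa9. Capitals mark the match, and the Ndufb8 window held none.
Ndufb8: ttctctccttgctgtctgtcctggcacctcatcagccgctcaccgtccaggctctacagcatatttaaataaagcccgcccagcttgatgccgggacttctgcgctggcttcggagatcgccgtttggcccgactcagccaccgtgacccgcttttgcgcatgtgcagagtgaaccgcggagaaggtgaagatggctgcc
Ndufb7: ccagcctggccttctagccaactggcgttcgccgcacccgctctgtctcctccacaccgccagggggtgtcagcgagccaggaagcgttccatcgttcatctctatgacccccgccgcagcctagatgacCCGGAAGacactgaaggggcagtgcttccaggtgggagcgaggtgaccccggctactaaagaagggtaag
Ndufs5: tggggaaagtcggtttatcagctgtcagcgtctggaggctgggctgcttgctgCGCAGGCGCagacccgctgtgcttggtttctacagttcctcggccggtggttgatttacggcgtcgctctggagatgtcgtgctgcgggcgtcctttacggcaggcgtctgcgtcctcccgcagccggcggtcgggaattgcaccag
Ndufa9: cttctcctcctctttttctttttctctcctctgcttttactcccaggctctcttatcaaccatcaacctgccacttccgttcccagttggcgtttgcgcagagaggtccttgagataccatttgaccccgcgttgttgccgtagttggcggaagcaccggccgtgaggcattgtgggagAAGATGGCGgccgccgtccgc

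The NRF1 letters were found in 11 of the 40 member windows (27.5%), against 14.1% of the 10167 windows of genes tested and 6.6% of all 27025 windows. The YY1 letters were in 7 member windows (17.5%), against 5.4% of the windows of tested genes and 2.5% of all windows. The ETS letters were in 6 of the 40 member windows, against 18.4% of tested genes and 9.1% of all windows. At least 1 of the 3 motifs stood in 22 member windows (55.0%), against 32.9% of tested genes, and no match overlapped a match of another motif in the members. The NRF1 letters stood in 3 of 19 windows of members called lower (15.8%) and in 8 of 21 windows of members not called (38.1%). For the ETS letters these shares were 15.8% and 14.3%, and for the YY1 letters 15.8% and 19.0%, and none of these differences was tested. These shares describe letters in a window, not bound sites.

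Nduf RNA was lower in Mc5r-null than in wild-type LSK cells across most of the members measured. Of the 47 members that passed the filter on low counts, 25 fell and 0 rose in Mc5r-null cells at an adjusted p under 0.05 (edgeR's quasi-likelihood test, Benjamini-Hochberg adjustment over all 15257 genes tested). Over all genes tested, 16.1% were called lower and 16.8% higher. The median log2 fold change, Mc5r-null over wild type, was -0.20 over the members, so that the median member fell by 12.9%, and it was -0.0047 over all genes tested. In 32 of the 47 members all 3 Mc5r-null libraries lay below all 3 wild-type libraries, which held for 24.1% of all genes tested. In 0 members did they all lie above, which held for 3688 of the 15257 genes tested. At an unadjusted p under 0.05, edgeR gave 29 members lower and 0 higher, and the share of all genes at that cut was not computed. DESeq2 called 13 lower and 0 higher, 11 of them among the 25, where it called 3102 of the 15257 genes in either direction. With limma-voom 26 members were lower and 0 higher, where 4932 of the 15257 genes were called in either direction. Among the 10001 genes tested that were at least as abundant as the 10th percentile of the members, 21.0% were called lower, 17.5% were called higher and the median log2 fold change was -0.022. Since these are bulk samples, fewer cells of a type and less RNA per cell cannot be told apart.

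**Figure D1:**
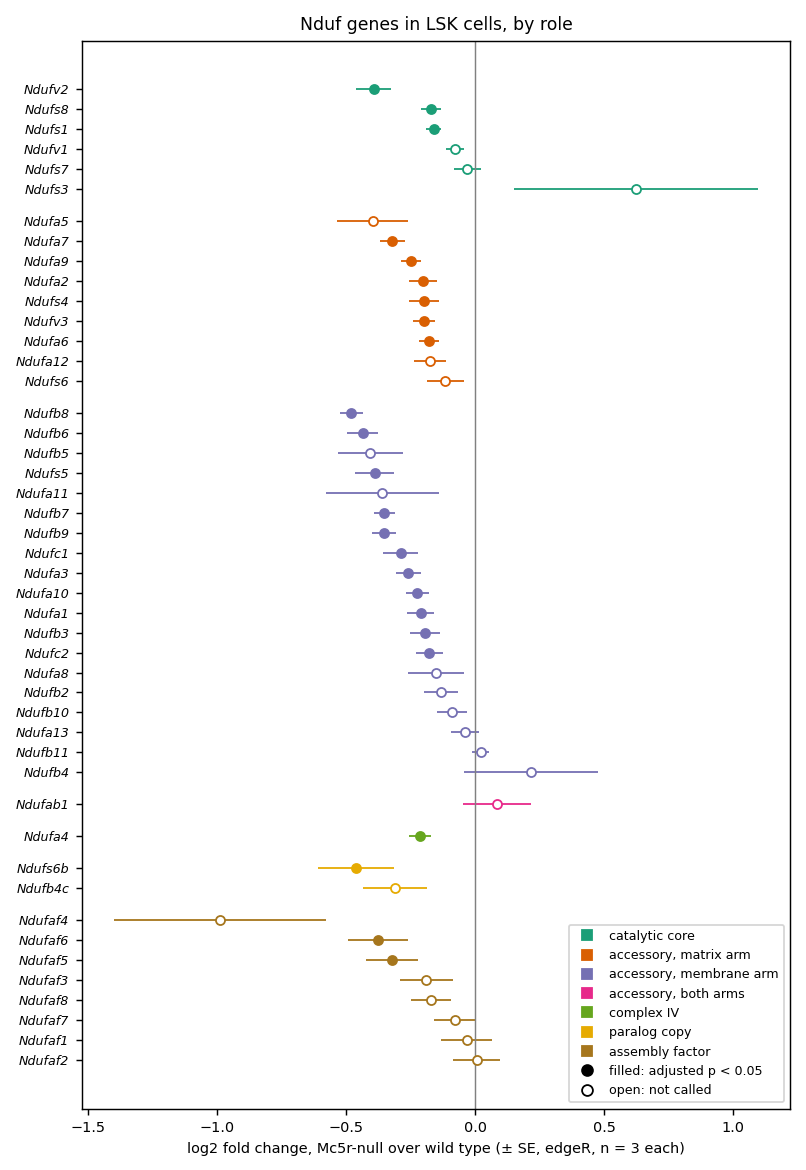
Log2 fold change (Mc5r-null over wild type, x axis) with its SE for each Nduf gene tested and reported here, grouped by role, from edgeR on 3 libraries a genotype; filled points are genes at an adjusted p under 0.05. Filled points lie left of 0 in every role that has one, and the 5 genes right of 0 are all open.

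The libraries held 13983016 to 14076870 gene counts in Mc5r-null cells and 14903723 to 14953169 in wild-type cells. Mc5r itself had 0, 0 and 1 counts in the Mc5r-null libraries, against 181, 157 and 198 in the wild-type libraries. All 8 LSK markers, Ly6a (Sca-1) and Kit among them, were detected, and their summed level was 1642 to 1666 TMM-scaled CPM (counts relative to library sizes that edgeR adjusted by the trimmed mean of M-values) in Mc5r-null cells and 1342 to 1371 in wild-type cells, with 6 higher and 1 lower. Markers of other cell types moved with genotype as well. The summed level of 11 plasma cell markers was 37493 to 40237 TMM-scaled CPM in Mc5r-null cells, against 11555 to 11644 in wild-type cells, and all 11 rose. The 7 erythroid markers summed to 169 to 171 in Mc5r-null cells and 25.1 to 25.3 in wild-type cells, and all 7 rose. The 6 myeloid progenitor markers summed to 10640 to 11045 in Mc5r-null cells and 16177 to 17290 in wild-type cells, and all 6 fell. Of 8 lineage genes, Ptprc (CD45, which LSK cells also carry) had 204 to 298 TMM-scaled CPM in Mc5r-null cells and 207 to 292 in wild-type cells. The other 7 summed to 103 to 142 in Mc5r-null cells and 101 to 139 in wild-type cells, with 2 higher and 1 lower. None of the markers in these lists was at 0 in all libraries, and the part of these cell types in the Nduf differences was not tested. Immunoglobulin genes took 6.87% to 6.96% of counts in Mc5r-null libraries and 2.14% to 2.15% in wild-type libraries, which lowers the share left for other genes.

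Among the nuclear-encoded catalytic core subunits, Ndufv2, Ndufs1 and Ndufs8 fell in Mc5r-null cells and none rose. Ndufv2, an iron-sulfur subunit next to the flavin site where NADH is oxidised, moved most of these. It had 83.5, 72.0 and 69.9 TMM-scaled CPM in the Mc5r-null libraries, against 102, 96.0 and 98.1 in the wild-type libraries. The groups did not overlap, and the log2 fold change was -0.39 ± 0.0672 (SE, n = 3 each; edgeR adjusted p = 0.00339). Ndufs1, the largest subunit of the matrix arm and holder of several iron-sulfur clusters, had 101, 103 and 100.1 TMM-scaled CPM in Mc5r-null cells, against 113, 114 and 114 in wild-type cells. Its groups were apart and tight, with a log2 fold change of -0.16 (edgeR adjusted p = 0.00376). Ndufs8, which carries the iron-sulfur clusters between the NADH side and the quinone side, had 59.4, 58.9 and 59.8 TMM-scaled CPM in Mc5r-null cells and 68.9, 65.5 and 66.0 in wild-type cells, a log2 fold change of -0.17 (edgeR adjusted p = 0.0103). DESeq2 kept the call of Ndufv2 but not those of Ndufs1 and Ndufs8 (adjusted p 0.0617 and 0.110).

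Ndufv1, Ndufs7 and Ndufs3 did not pass the test. Ndufv1, which binds the flavin and NADH, had 79.9, 81.9 and 80.1 TMM-scaled CPM in Mc5r-null cells and 88.0, 83.8 and 83.6 in wild-type cells, groups that did not overlap (log2 fold change -0.078, edgeR adjusted p = 0.134). Ndufs7, whose iron-sulfur cluster passes electrons to ubiquinone, had 52.7, 52.7 and 47.9 TMM-scaled CPM in Mc5r-null cells and 51.5, 51.2 and 53.9 in wild-type cells, and the groups overlapped (edgeR adjusted p = 0.699). Ndufs3, a core subunit of the same region, was measured at very few reads. It had 23, 11 and 44 counts in Mc5r-null libraries, against 21, 18 and 16 in wild-type libraries, and the log2 fold change of 0.62 ± 0.474 (SE) did not pass (edgeR adjusted p = 0.367). The processed pseudogene Gm12251 matches Ndufs3 at 98.6% identity over 792 bases and held 205.3 counts on average where Ndufs3 held 22.2, so how reads were shared between them is uncertain. With the counts of both summed, the level was 16.4, 16.0 and 18.1 TMM-scaled CPM in Mc5r-null cells and 15.5, 14.9 and 13.7 in wild-type cells, a log2 fold change of 0.20 ± 0.0843 (SE, edgeR adjusted p = 0.111).

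All 9 accessory subunits of the matrix arm had a negative log2 fold change, and 6 of them fell, with a median of -0.20. Over all genes tested 50.7% had a negative log2 fold change and 16.1% were called lower. Ndufa7 had 37.0, 37.3 and 37.3 TMM-scaled CPM in Mc5r-null cells, against 47.4, 44.5 and 47.6 in wild-type cells. Its log2 fold change was -0.32 ± 0.049 (SE, n = 3 each; edgeR adjusted p = 0.00146). Ndufa9, which binds a nicotinamide nucleotide and stabilises the junction of both arms, had 90.7, 95.6 and 99.3 TMM-scaled CPM in Mc5r-null cells and 114, 112 and 113 in wild-type cells (log2 fold change -0.25, edgeR adjusted p = 0.00157). In both genes every Mc5r-null library lay below every wild-type library. Ndufv3, Ndufa6, Ndufa2 and Ndufs4 also fell, with log2 fold changes of -0.20, -0.18, -0.20 and -0.20 and edgeR adjusted p-values of 0.00876, 0.00886, 0.0224 and 0.0313. DESeq2 kept Ndufa7 and Ndufa9 but none of these 4 (adjusted p 0.0772, 0.109, 0.0971 and 0.171). Ndufs4 is the subunit whose loss in mice gives the widely used model of Leigh syndrome. The Ndufa2 call did not hold without Mc5r-null replicate 2 or 3 or wild-type replicate 1 or 2 (adjusted p 0.0518 to 0.0681), and the Ndufs4 call did not hold without Mc5r-null replicate 1 or 3 or wild-type replicate 2 or 3 (0.0601 to 0.0991).

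The remaining 3 accessory subunits of the matrix arm were not called. Ndufa5 had 21.9, 17.0 and 17.8 TMM-scaled CPM in Mc5r-null cells and 27.4, 26.7 and 20.6 in wild-type cells, and the groups overlapped through Mc5r-null replicate 1 and wild-type replicate 3 (edgeR adjusted p = 0.0646). It passed without Mc5r-null replicate 1 (adjusted p = 0.0267) and without wild-type replicate 3 (0.0119). Ndufa12 had a log2 fold change of -0.17 (edgeR adjusted p = 0.0643), and summed with its processed copy Ndufa12-ps, which matches it at 99.5% identity over 402 bases, it was called lower at -0.19 (adjusted p = 0.0261). Ndufs6 had a log2 fold change of -0.12 (edgeR adjusted p = 0.247).

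The membrane arm held the 4 members with the smallest p-values. Of its 19 accessory subunits, 11 fell (57.9%, beside 16.1% of all genes) and none rose, with a median log2 fold change of -0.22. Ndufb8, on chromosome 19 at 44548572 to 44555440 (GRCm38, minus strand), had 50.7, 50.3 and 47.0 TMM-scaled CPM in Mc5r-null cells, against 68.7, 68.5 and 69.3 in wild-type cells. The wild-type libraries lay within 1 unit of each other and well above every Mc5r-null library. It fell by 28.3%, a log2 fold change of -0.48 ± 0.0437 (SE, n = 3 each; edgeR adjusted p = 8.4e-05). Ndufb8, whose promoter is printed above, is an integral membrane subunit often probed as a marker of assembled complex I.

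Ndufb7, an intermembrane-space subunit on chromosome 8 at 83566671 to 83571626, had 66.8, 63.4 and 69.0 TMM-scaled CPM in Mc5r-null cells, against 84.5, 86.2 and 83.8 in wild-type cells (log2 fold change -0.35, edgeR adjusted p = 0.000325). Ndufb9, a member of the LYR protein family that faces the matrix, had 57.7, 59.9 and 58.3 in Mc5r-null cells and 79.3, 72.7 and 72.7 in wild-type cells (log2 fold change -0.35, edgeR adjusted p = 0.000668). Ndufb6 had 31.7, 32.8 and 29.2 TMM-scaled CPM in Mc5r-null cells and 42.8, 40.9 and 43.0 in wild-type cells (log2 fold change -0.44, edgeR adjusted p = 0.000819). None of the 3 genes had overlapping groups. Exons of Smim27 on the opposite strand cover 39.0% of the Ndufb6 exons, and the labels do not say whether counting used strand. Other members share such overlaps, among them Ndufa13 (Tssk6, 30.0% of its exons), Ndufb11 (Rbm10, 12.9%), Ndufb5 (Mrpl47, 12.3%) and Ndufa2 (Tmco6, 11.5%).

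Ndufa10, Ndufa3 and Ndufs5 were the other membrane-arm subunits among the 12 smallest p-values. Ndufa10, a matrix-facing subunit related to nucleoside kinases, had 79.9, 87.8 and 83.0 TMM-scaled CPM in Mc5r-null cells and 94.8, 98.1 and 99.8 in wild-type cells (log2 fold change -0.22, edgeR adjusted p = 0.00474). Ndufa3 had 39.2, 40.4 and 37.3 TMM-scaled CPM in Mc5r-null cells and 46.9, 45.7 and 47.3 in wild-type cells (log2 fold change -0.26, edgeR adjusted p = 0.00476). Ndufs5, which faces the intermembrane space, had 16.4, 17.0 and 14.7 TMM-scaled CPM in Mc5r-null cells and 21.2, 21.2 and 20.6 in wild-type cells (log2 fold change -0.39, edgeR adjusted p = 0.00516). All 3 had every Mc5r-null library below every wild-type library. The other membrane-arm calls were Ndufc1, Ndufa1, Ndufc2 and Ndufb3, with log2 fold changes of -0.29, -0.21, -0.18 and -0.19 and edgeR adjusted p-values of 0.0128, 0.0166, 0.033 and 0.0341. DESeq2 called none of these 4 (adjusted p 0.0892, 0.114, 0.190 and 0.146) and kept the other 7 calls of the membrane arm. The Ndufa1 call did not hold without Mc5r-null replicate 3 or wild-type replicate 1 (adjusted p 0.0555 and 0.0514). Ndufc2 was lost without any 1 library other than wild-type replicate 1 (adjusted p 0.0700 to 0.0992), and Ndufb3 without any 1 library other than Mc5r-null replicate 1 (0.0669 to 0.0995).

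**Figure D2:**
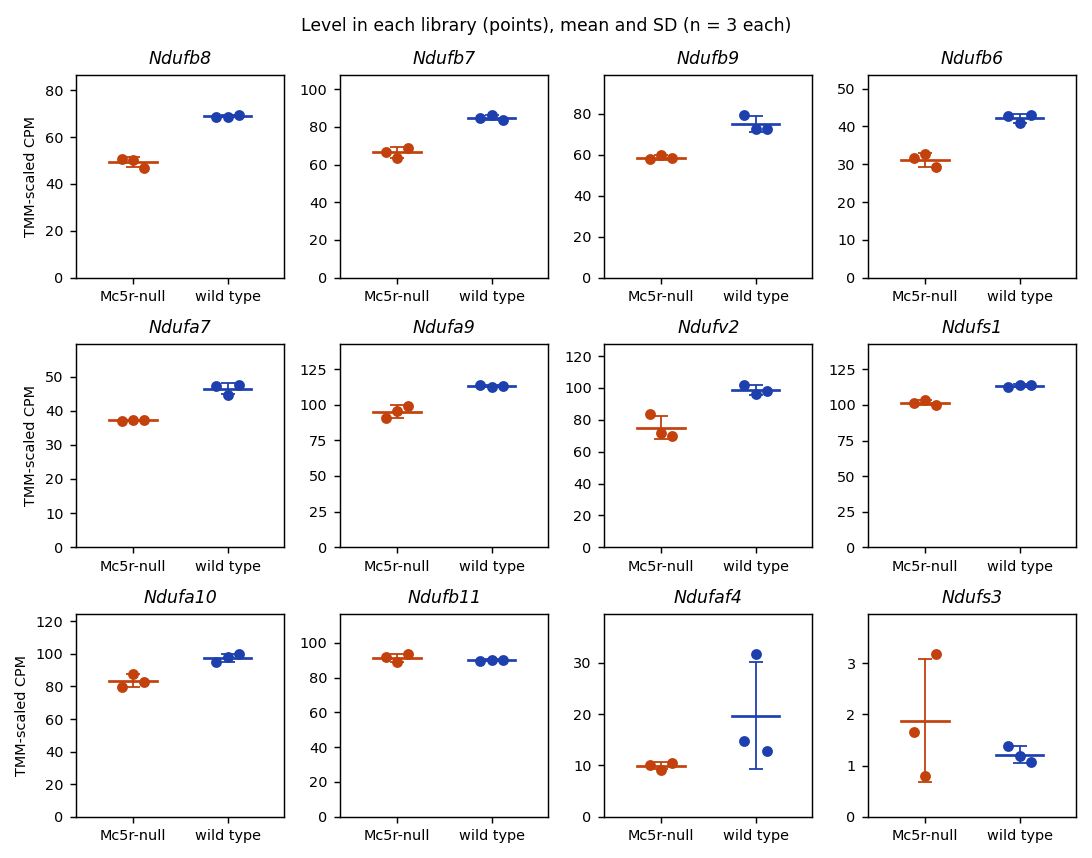
TMM-scaled CPM (y axis, each panel from 0) in every library of 12 Nduf genes, Mc5r-null left and wild type right; points are libraries, the long line is the mean and the bars the SD of 3. Groups are apart in Ndufb8, Ndufb7, Ndufb9, Ndufb6, Ndufa7, Ndufa9, Ndufv2, Ndufs1 and Ndufa10, overlap in Ndufb11 and Ndufs3, and in Ndufaf4 wild-type replicate 2 stands at 31.7.

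The other 8 membrane-arm subunits were not called. Ndufb5, with the largest fold change among them, had 40.6, 51.4 and 51.3 TMM-scaled CPM in Mc5r-null cells and 58.2, 72.0 and 59.7 in wild-type cells. Its groups did not overlap, but the spread within each was wide (edgeR adjusted p = 0.0535 for a log2 fold change of -0.41 ± 0.125, SE), and DESeq2 and limma-voom called it lower (adjusted p 0.0151 and 0.0381). Ndufa11 and Ndufa8 had log2 fold changes of -0.36 and -0.15 (edgeR adjusted p = 0.271 and 0.348), and both were called lower without wild-type replicate 1, at -0.54 (adjusted p = 0.0356) and -0.27 (0.00688). Ndufb2, Ndufb10 and Ndufa13 had log2 fold changes of -0.13, -0.090 and -0.040. Ndufb11 had 91.6, 88.9 and 93.4 TMM-scaled CPM in Mc5r-null cells and 89.3, 90.3 and 90.4 in wild-type cells, a log2 fold change of 0.021 ± 0.033 (SE, edgeR adjusted p = 0.675) that was -0.012 when libraries were scaled by their totals alone.

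Ndufb4 and Ndufab1, like Ndufs3, have near-identical copies that took most of the reads. Ndufb4 averaged 15.2 counts and the paralog copy Ndufb4c, identical over 390 bases, averaged 67. Ndufb4 alone had a log2 fold change of 0.22 (edgeR adjusted p = 0.612), and summed with Ndufb4c the level was 5.25 ± 0.152 TMM-scaled CPM in Mc5r-null cells and 6.08 ± 0.236 in wild-type cells (SD, n = 3 each), a log2 fold change of -0.21 (adjusted p = 0.201). Ndufab1, the mitochondrial acyl carrier protein, which sits in both arms, had a log2 fold change of 0.083 (edgeR adjusted p = 0.674). Summed with Gm4459 and Ndufab1-ps its log2 fold change was -0.068 (adjusted p = 0.457), so neither gene had a direction that held under both ways of counting.

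Of the Nduf-named genes outside complex I, Ndufa4 and the paralog copy Ndufs6b were called lower. Ndufa4, described first as a complex I subunit and now placed in complex IV, had 68.8, 67.8 and 63.4 TMM-scaled CPM in Mc5r-null cells, against 76.6, 79.4 and 76.2 in wild-type cells. The groups did not overlap (log2 fold change -0.21, edgeR adjusted p = 0.00586). Its relative Ndufa4l2 had 2, 0 and 6 counts in Mc5r-null libraries and 0, 0 and 0 in wild-type libraries and was not tested, and Ndufa11b had 0, 0 and 0 counts in Mc5r-null libraries and 0, 1 and 0 in wild-type libraries. The paralog copy Ndufs6b, 96.6% identical to Ndufs6, had 2.45, 2.38 and 2.38 TMM-scaled CPM in Mc5r-null cells and 3.05, 3.65 and 3.25 in wild-type cells (log2 fold change -0.46, edgeR adjusted p = 0.0432). That call was lost whichever single library was left out (adjusted p 0.0528 to 0.146) and in DESeq2 (0.319). Ndufb4c had a log2 fold change of -0.31 (edgeR adjusted p = 0.0891).

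Assembly factors were fewer among the calls than subunits, but their median shift was close to that of the subunits. Of the 8 Ndufaf genes, 2 fell (25%) and 0 rose, and of the 36 subunits 21 fell (58.3%) and 0 rose (edgeR, adjusted p under 0.05), beside 16.1% of all genes called lower. The median log2 fold change was -0.18 over the assembly factors and -0.20 over the subunits. Without 1 library the median over the assembly factors was -0.23 to -0.16, and the count called was 0 or 1: it was 0 without Mc5r-null replicate 1 or 2, and 1 without any other library. In 4 of the 8 assembly factors and 25 of the 36 subunits every Mc5r-null library lay below every wild-type library, beside 24.1% of all genes. Assembly factors were also the less abundant RNAs, with a median level of 6.35 TMM-scaled CPM per kb of exon in Mc5r-null cells and 7.57 in wild-type cells. For the subunits the median was 28.6 in Mc5r-null cells and 30.7 in wild-type cells. The median abundance behind the tests was 3.88 log2 CPM for the assembly factors and 5.71 for the subunits, and the difference between the classes was not tested.

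Ndufaf4, which works with Ndufaf3 on the early quinone-binding module, had 10.1, 9.17 and 10.5 TMM-scaled CPM in Mc5r-null cells, against 14.7, 31.7 and 12.8 in wild-type cells. Every Mc5r-null library was below every wild-type library, yet wild-type replicate 2 stood far above the rest of its group, and the log2 fold change of -0.99 ± 0.41 (SE) did not pass (edgeR adjusted p = 0.139). Without wild-type replicate 2 it was -0.47 and was called (adjusted p = 0.0212), and DESeq2 called it with all libraries (adjusted p = 0.0119). Ndufaf6 had 8.80, 7.51 and 9.03 TMM-scaled CPM in Mc5r-null cells and 9.88, 12.2 and 10.8 in wild-type cells (log2 fold change -0.38, edgeR adjusted p = 0.0385). Ndufaf5, an arginine hydroxylase that acts on NDUFS7 in human cells, had 8.66, 8.67 and 9.53 in Mc5r-null cells and 11.4, 12.1 and 10.2 in wild-type cells (log2 fold change -0.32, edgeR adjusted p = 0.0383). Groups did not overlap in either gene. The Ndufaf5 call did not hold without Mc5r-null replicate 1 or 2 or wild-type replicate 1 or 2 (adjusted p 0.0928 to 0.120), nor the Ndufaf6 call without any 1 library other than wild-type replicate 1 (0.0535 to 0.122). DESeq2 called neither (adjusted p 0.195 for Ndufaf5 and 0.149 for Ndufaf6), nor did the fit with a replicate block (0.0808 and 0.0819).

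Ndufaf8, the partner of Ndufaf5, had 14.2, 12.9 and 14.2 TMM-scaled CPM in Mc5r-null cells and 15.3, 15.4 and 15.7 in wild-type cells, apart but not called (log2 fold change -0.17, edgeR adjusted p = 0.125). Ndufaf3 had 13.3, 15.2 and 14.8 in Mc5r-null cells and 14.4, 17.6 and 17.3 in wild-type cells (log2 fold change -0.19, edgeR adjusted p = 0.194). Ndufaf7, a mitochondrial protein arginine methyltransferase, had 19.2, 22.2 and 20.1 in Mc5r-null cells and 22.9, 20.4 and 21.8 in wild-type cells (log2 fold change -0.079, edgeR adjusted p = 0.5). The groups overlapped in both Ndufaf3 and Ndufaf7. Ndufaf1, part of the complex that builds the membrane arm, had 14.4, 13.9 and 11.7 in Mc5r-null cells and 14.1, 12.9 and 14.0 in wild-type cells (log2 fold change -0.033, edgeR adjusted p = 0.833). Ndufaf2, which acts at a late step, had 15.9, 13.7 and 13.8 in Mc5r-null cells and 15.0, 13.5 and 14.8 in wild-type cells (log2 fold change 0.0051, edgeR adjusted p = 0.974). Neither of these had a direction that held in every setting run.

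Summed over genes, subunit RNA made up 1752, 1741 and 1759 CPM (here over all gene counts) in the Mc5r-null libraries, against 2051, 2084 and 2070 CPM in the wild-type libraries. The means in Mc5r-null and wild-type cells were 1751 ± 8.74 and 2068 ± 16.9 CPM (SD, n = 3 each). The sum fell by 15.3% in Mc5r-null cells. The gap was many times the spread among libraries of a genotype, which the labels do not tie to animals. With TMM-scaled libraries the subunit sum fell by 13.3%, and with immunoglobulin genes taken out of the denominator it fell by 11.0%. The 8 assembly factors summed to 102 ± 0.844 CPM in Mc5r-null cells and 125 ± 10.6 in wild-type cells, with 137.0 in wild-type replicate 2. Without Ndufaf4 the sum of the other 7 was 92.6 ± 0.526 CPM in Mc5r-null cells and 104.9 ± 0.953 in wild-type cells, so it fell by 11.7%. Subunit counts were 17.1 ± 0.0926 times those of the assembly factors in Mc5r-null cells and 16.6 ± 1.24 times in wild-type cells (SD, n = 3 each), values that overlapped: the wild-type libraries had ratios of 17.3, 15.2 and 17.4.

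Levels of the members ranged widely when set per kb of exon. Ndufa2 stood at 99.0 TMM-scaled CPM per kb in Mc5r-null cells and 113.9 in wild-type cells, Ndufb11 at 100.6 in Mc5r-null cells and 99.1 in wild-type cells, and Ndufa1 at 79.9 in Mc5r-null cells and 92.5 in wild-type cells. In wild-type cells 25 of the 36 subunits were above the most abundant assembly factor, Ndufaf8, which had 16.5 in Mc5r-null cells and 18.6 in wild-type cells. The lowest tested members per kb were Ndufb4 at 0.590 in Mc5r-null cells and 0.508 in wild-type cells, Ndufs3 at 0.862 in Mc5r-null cells and 0.558 in wild-type cells, and Ndufab1 at 2.16 in Mc5r-null cells and 2.04 in wild-type cells. The rank of Ndufab1 rests on 6883 bases of annotated exon, where its longest protein-coding transcript has 3479. Before division by length it averaged 14.9 TMM-scaled CPM in Mc5r-null cells and 14.1 in wild-type cells, above Ndufaf6 at 8.45 in Mc5r-null cells and 11.0 in wild-type cells. Ndufb4, Ndufs3 and Ndufab1 have near-identical copies that took most of the reads, as described above. They are 3 of the 5 members with a positive log2 fold change, the others being Ndufb11 and Ndufaf2. Copies were not particular to genes with a positive value. Ndufb11 has 1 (Gm6444, 96.9% identity), and so do Ndufa12, Ndufb3, Ndufs5 and Ndufs6, whose log2 fold changes were negative. The 49 genes are spread over 17 chromosomes, with at most 6 on 1 of them.

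**Figure D3:**
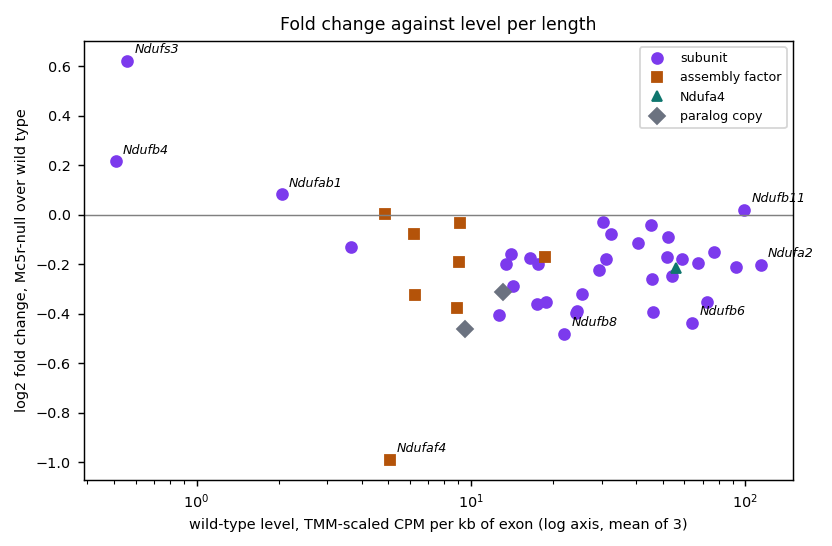
Log2 fold change (Mc5r-null over wild type, y axis) against the mean wild-type level per kb of exon (TMM-scaled CPM per kb, log x axis) of the Nduf genes tested and reported here; marker shape gives the class. The 3 subunits of lowest level per kb, Ndufb4, Ndufs3 and Ndufab1, lie above 0 at the left, and most genes of higher level per kb lie below 0.

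The complex I subunits encoded by mitochondrial DNA moved less, and not in 1 direction. Of 7, mt-Nd1, mt-Nd2, mt-Nd3 and mt-Nd5 fell, with log2 fold changes of -0.046, -0.15, -0.22 and -0.13 (edgeR adjusted p = 0.0279, 0.000186, 0.00668 and 0.000174). One, mt-Nd4, rose by 0.11 on the log2 scale (edgeR adjusted p = 0.00767), and mt-Nd4l and mt-Nd6 were not called. Their sum was 5235 ± 18.8 TMM-scaled CPM in Mc5r-null cells and 5365 ± 51.4 in wild-type cells (SD, n = 3 each). Of 8 assembly factors with other names, Foxred1 and Ecsit fell (log2 fold change -0.19 and -0.21, edgeR adjusted p = 0.0245 and 0.035) and none was called higher. Over these 8, 25% were called lower beside 16.1% of all genes, the median log2 fold change was -0.10 and 3 values were positive. The difference between the nuclear and the mitochondrially encoded sets was not tested.

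Lower RNA was not particular to complex I. Nuclear-encoded subunits of complexes II to V fell in 24 of 38 genes (63.2%) with none higher and a median log2 fold change of -0.21, beside 21 of 36 and -0.20 for the complex I subunits. All 9 complex III genes fell, with a median of -0.30: Uqcr10 by 0.70, Uqcrq by 0.41 and Uqcrc1 by 0.33 on the log2 scale (edgeR adjusted p = 0.000113, 0.000119 and 0.000304). In complex II 3 of 4 fell, in complex IV 3 of 10 and in the ATP synthase (complex V) 9 of 15. Cox6b1 of complex IV fell by 0.35 and Atp5o of complex V by 0.49 on the log2 scale (edgeR adjusted p = 7.88e-05 and 0.000194). Of 11 genes tested for known regulators of the respiratory chain, 0 were called lower and 2 higher (18.2%), Ppargc1b (log2 fold change 0.27, edgeR adjusted p = 0.0365) and Gabpb1 (0.25, 0.0264). Over all genes tested 16.1% were called lower and 16.8% higher, so the share of regulators called higher was near that of all genes. Nrf1, Gabpa, Yy1, Tfam, Esrra and Myc were not called.

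**Figure D4:**
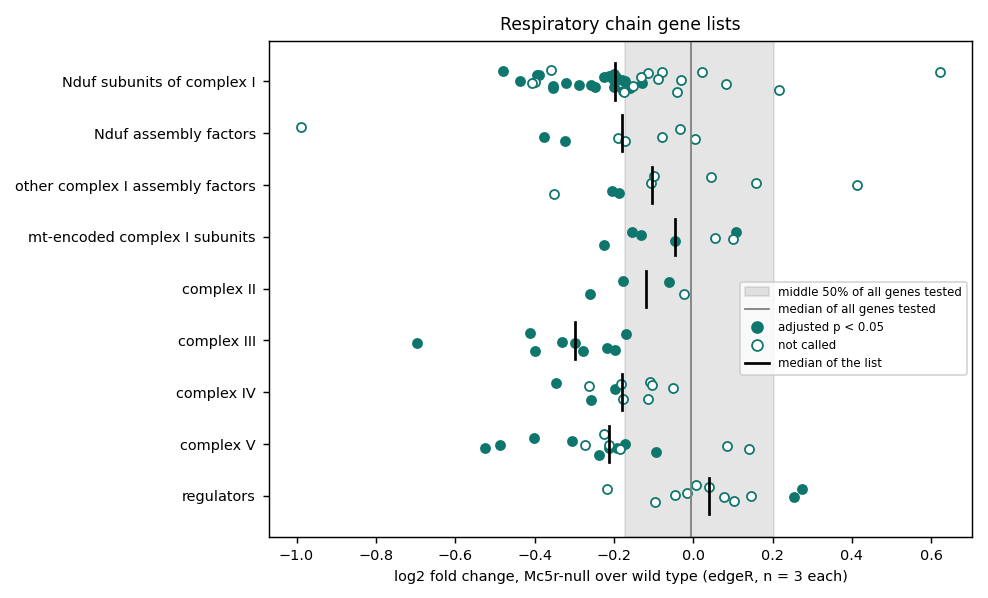
Log2 fold change (Mc5r-null over wild type, x axis) of each gene in the complex I lists, complexes II to V and their regulators, from edgeR on 3 libraries a genotype; filled points are called at an adjusted p under 0.05, black bars are list medians and the grey band is the middle 50% of all genes tested, -0.17 to 0.20. The medians of complexes I, III, IV and V lie left of the band and that of the regulators lies inside it.

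The -ps rows left out by the rule add 1 gene of interest. Ndufb1-ps carries the deposited description of subunit B1, for which the table has no other row, and it had 23.9, 22.8 and 26.6 TMM-scaled CPM in Mc5r-null cells, against 34.3, 36.3 and 32.6 in wild-type cells. The groups did not overlap (log2 fold change -0.49, edgeR adjusted p = 0.00146). Ndufs5-ps was also called lower at -0.26 (edgeR adjusted p = 0.0338), and Ndufs5 summed with it was lower at -0.33 (adjusted p = 0.00127).

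By the median ratio of variance to mean, members varied less across the libraries of 1 genotype than all genes did. The median ratio that counting alone would give with 3 libraries was not computed. Over members with a mean of at least 50 counts, the median ratio of variance to mean was 1.0 in Mc5r-null libraries and 0.650 in wild-type libraries, and over all such genes it was 1.12 in Mc5r-null libraries and 1.14 in wild-type libraries. A chi-square of all genes between 2 libraries of a genotype, divided by the number of genes, was 6.49 to 8.37 in Mc5r-null cells and 6.12 to 6.66 in wild-type cells, a value that genes of high count and wide spread can dominate. The labels do not tie libraries to animals, so the p-values reflect differences among libraries, and their source is not known.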

How the data were processed

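Poly-A RNA of LSK cells was sequenced as paired-end stranded libraries, per the labels' protocols. The authors deposited 1 table with a whole-number count and an FPKM value per gene and library, per the file headers. CASAVA 1.8, HISAT2, StringTie, edgeR and the build GRCm38 are named per the submitters' processing notes, and their roles, the annotation release and the use of strand are not given in the sources used here. The deposited FPKM values rest on gene lengths that fell within 2% of the union exon length in 9 of 49 members, so levels were set per kb of GENCODE M21 union exons instead and only the counts were tested.

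The whole table of counts was fitted with edgeR 4.0.16 (R 4.3.3): filterByExpr (minimum count 10, minimum total 15), TMM scaling and the robust quasi-likelihood test, 3 Mc5r-null against 3 wild-type libraries with no block, called at a Benjamini-Hochberg adjusted p under 0.05. Library totals were 13983016 to 14953169 counts. Gene levels in CPM are TMM-scaled, except the sums of subunits and of assembly factors, which are over all gene counts unless stated. Copies were sought among annotated transcripts at 95% identity or more over at least 250 bases. The fit was tested on simulated data.

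Alternatives were RLE, upper-quartile and no scaling beyond totals, DESeq2 1.42.0, limma-voom (limma 3.58.1), no filter or 1 CPM in 3 libraries, thresholds of 0.01 and 0.1, removal of immunoglobulin genes, copies summed, each library left out, and the replicate number as a block. Same-numbered libraries did not deviate together (correlations 0.00299, -0.0334 and -0.0258). A chi-square of counts over all genes found a difference beyond counting noise between every 2 libraries of a genotype.

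Members and gene lists were chosen with earlier results of these data known. Values per library were given for the 12 called members of smallest p, the core subunits reported, the Ndufaf genes and the 2 uncalled subunits of largest change, and up to 3 genes of smallest p per other list were named. Other genes were named after their values were seen. Values of 1 member are not reported here, though counts and sums over members include it.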

Additional observations from a re-analysis of the deposited data

How the results depend on the processing

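No called Nduf gene changed direction under any of the 18 alternatives: of 449 values of called genes, 378 stayed past the threshold and 71 did not. The thresholds of 0.01 and 0.1 reused the main fit, so no direction could change there and no call could be lost at 0.1. All alternatives used the libraries in which these genes were called, so the tally describes the processing and is not independent support. The calls of 11 genes held in every alternative run: Ndufa10, Ndufa3, Ndufa4, Ndufa7, Ndufa9, Ndufb6, Ndufb7, Ndufb8, Ndufb9, Ndufs5 and Ndufv2. Beside 25 members, 21 subunits and 2 assembly factors lower, out of 5023 genes called in all, DESeq2 gave 13, 11 and 1 (Ndufaf4, called by edgeR only without wild-type replicate 2) out of 3102, an adjusted p under 0.01 gave 14, 13 and 0 out of 2996, and the cause of the DESeq2 difference was not tested. With 1 library left out the members called lower were 18 to 21, the subunits 16 to 20, the assembly factors 0 to 1 and all genes 4070 to 4184, with fewer samples in each fit, and the median over the assembly factors was -0.23 to -0.16. With the replicate block 22 members, 21 subunits and 0 assembly factors were lower, out of 4402 genes called in all. Calls lost with the block included Ndufb3, Ndufc2, Ndufs6b, Ndufaf5 and Ndufaf6 (adjusted p 0.0601, 0.0565, 0.0764, 0.0808 and 0.0819). The block also passed Ndufb5, Ndufa5 and Ndufa11 (adjusted p 0.00906, 0.0342 and 0.0484). No member was called higher in any alternative.

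The summed subunit level was -0.24 on the log2 scale over all gene counts, -0.21 with TMM and -0.17 without immunoglobulin genes, and the assembly factors' sum was -0.29, or -0.18 without Ndufaf4, a choice made after seeing the data. Among uncalled genes the sign turned for Ndufaf2 (-0.0013 with upper-quartile scaling, -0.028 by totals alone), Ndufab1 (-0.068 with copies summed), Ndufb4 (-0.21 with copies summed) and Ndufb11 (-0.012 by totals alone). With 1 library left out it turned for Ndufaf2 (-0.071 to 0.042), Ndufab1 (-0.047 to 0.22), Ndufaf1 (-0.095 to 0.053) and Ndufs7 (-0.055 to 0.013). Scaling by totals alone, and summing copies, were added after the data were seen. With totals alone the median of all genes was -0.038, and Ndufv1, Ndufa12, Ndufa5 and Ndufb5 also passed (adjusted p 0.0405, 0.0341, 0.0475 and 0.0409). Few reads were counted for Ndufs3 and Ndufb4 beside their copies.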
